A study of Mus musculus with 12 samples.

Results

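Tenomodulin (Tnmd) and its relatives Cnmd, Itm2a, Itm2b and Itm2c share the BRICHOS domain, and their rows were read in single tendon cells that carry or lack Tnmd. These 5 of the 55418 genes of the count table were chosen by symbol and family, not by a measured value. All 5 had a row, 3 of them held counts, and the same 3 passed the minimum of 20 counts over all cells that was used for comparisons across genes. The study placed 6 Tnmd-/- ScxGFP+ cells beside 6 WT ScxGFP+ cells from uninjured Achilles tendons of mice on a C57BL/6 background. The Tnmd-/- allele is constitutive, so every cell type of the animal carries it, and both groups carry the ScxGFP transgene, a GFP reporter for Scx, a transcription factor of tendon, by which single cells were picked after collagenase digestion. Neither group received a treatment, and the age of the animals behind these cells is not given in the sources used here. Tnmd lies on the X chromosome, and the methods of the study place hemizygous males, homozygous females and heterozygous females together as WT. Each library is 1 hand-picked cell amplified by Smart-Seq2, which reads whole transcripts and tags no molecules. No label ties a cell to an animal. A genotype therefore counts as 1 sample, no test between genotypes was possible, and every comparison below describes these cells.

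The BRICHOS domain is found in type II transmembrane or secreted proproteins, where it is known as an intramolecular chaperone for an aggregation-prone segment that proteases later release. Differentiated cells of tendons and ligaments are commonly recognised by Tnmd. Cnmd, or chondromodulin-1, is its closest relative, a cartilage glycoprotein that restrains blood vessel growth. Both share a cysteine-rich C-terminal domain beside the BRICHOS domain. The ITM2 proteins form a separate branch: Itm2a is known from cartilage, muscle and T cells, Itm2b (BRI2) is widespread and is altered in familial British and Danish dementia, and Itm2c (BRI3) is best known from brain. The question put to these data is whether a relative, above all Cnmd, was read where Tnmd was absent.

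The answer for Cnmd was a count of 0 in each of the 12 cells, of both genotypes. Itm2a also had 0 counts in every cell. Tnmd itself was abundant in a single WT cell. Itm2b was the member read most widely, with levels that overlapped between the genotypes, and Itm2c was read in 3 WT cells and in no Tnmd-/- cell at more than 4 counts.

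**Figure D1:**
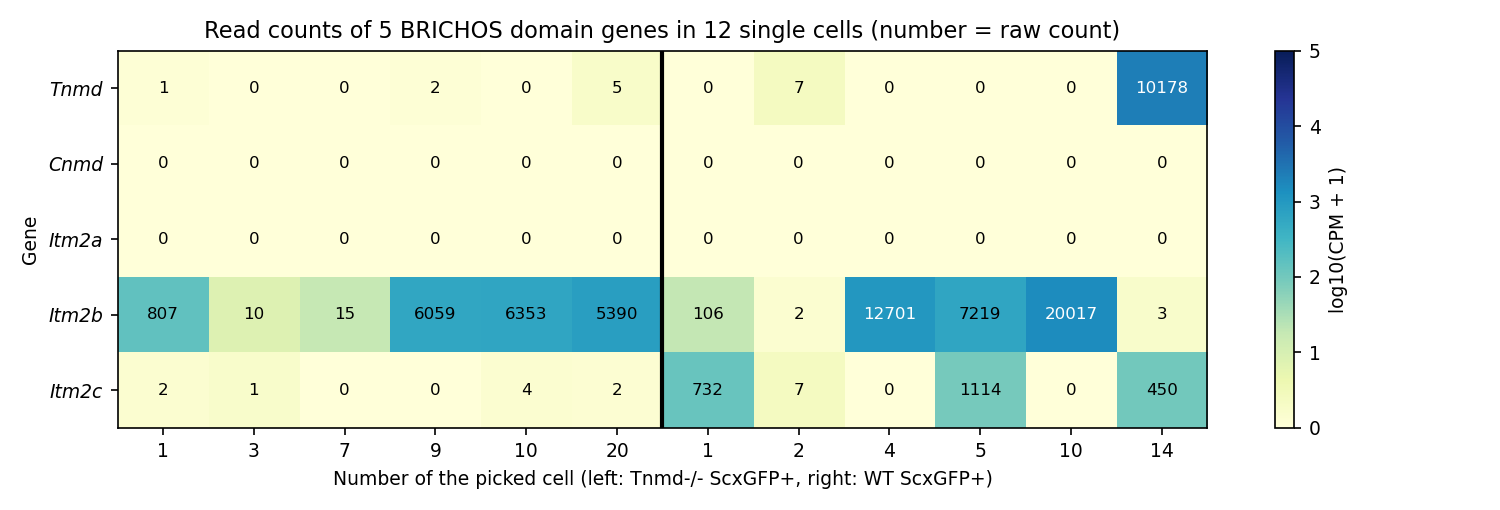
Raw counts of the 5 members (rows) in each picked cell (columns, 6 Tnmd-/- on the left and 6 WT on the right of the black line), with colour showing log10 of CPM plus 1, where CPM is counts per 1000000 counts of the cell. Cnmd and Itm2a are at 0 throughout, Tnmd stands out in WT cell 14 with 10178 counts, and Itm2c reaches 450 to 1114 counts in WT cells 1, 5 and 14 only.

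Total counts ran from 892713 to 10333351 in the Tnmd-/- cells and from 4516036 to 13613080 in the WT cells, with sums of 35088506 and 53439236. Tnmd-/- cells 3 and 7 were shallow, at 1504775 and 892713 counts, and 51.8% of the counts of Tnmd-/- cell 3 came from mitochondrial genes, against at most 7.30% in any other cell. Levels are given as CPM, counts per 1000000 counts of the cell. Levels of different genes are compared only as counts per exon kilobase, rescaled to a sum of 1000000 per cell (TPM). Intervals at 95% are exact Poisson intervals for sums and Clopper-Pearson intervals for ratios, and these cover counting error only. Clopper-Pearson intervals for shares of cells take the picked cells as independent draws. Since no label ties a cell to an animal, they do not give a spread between animals or a measure of a genotype. Of the tendon fibroblast genes listed, 4 had at least 10 counts in all 12 cells. These were Dcn, the collagen-binding proteoglycan decorin, Comp, a cartilage and tendon matrix protein, Col1a2 and Bgn. Other listed genes did so in fewer cells: Thbs4 in 10, Fmod in 8, Egr1 in 6, Col1a1 in 5, Col3a1 and Lum in 4 each, and Mkx in 3. Scx itself reached 10 counts in only 3 of the 12 cells, all WT. Of the genes with at least 10 counts in a cell, 1.83% were in 0 Tnmd-/- and at least 3 WT cells, and 0.929% showed the reverse.

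The 5 genes lie on 3 chromosomes and share no long stretch of sequence. In GRCm38, Tnmd (ENSMUSG00000031250) spans chrX:133850980-133865577 on the plus strand and Itm2a (ENSMUSG00000031239) chrX:107397099-107403376 on the minus strand. Cnmd (ENSMUSG00000022025) spans chr14:79637690-79662170 and Itm2b (ENSMUSG00000022108) chr14:73362226-73385289, both on the minus strand and 6.25 megabases apart. Itm2c (ENSMUSG00000026223) spans chr1:85894281-85908675 on the plus strand. Exons summed to 1353 bases for Tnmd, 1843 for Cnmd, 1744 for Itm2a, 2732 for Itm2b and 2491 for Itm2c, the same lengths as in the count table. None of these exon bases lies in an exon of another gene on either strand (0% for each member). The longest run of identical bases between transcripts of any pair of members was 18, between Tnmd and Cnmd, and no stretch of 50 bases of a member's transcript occurs in an annotated transcript of another gene.

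The stretch before the start site differs among the members in base composition. Scx is a basic helix-loop-helix factor, a class that binds the E-box CANNTG, so the 250 bases before the RefSeq start (GRCm38.p6) are shown for the member read in a single cell, for its unread closest relative and for the member read most widely, with CANNTG in capitals. They lie at chrX:133850758-133851007 on the plus strand for Tnmd, and on the minus strand at chr14:79662184-79662433 for Cnmd and chr14:73385290-73385539 for Itm2b. RefSeq starts can differ from the gene ends given above. The Tnmd window ends inside the Tnmd gene as placed there, from 133850980, and the windows of Itm2a and Itm2c also reach into their genes.
Tnmd: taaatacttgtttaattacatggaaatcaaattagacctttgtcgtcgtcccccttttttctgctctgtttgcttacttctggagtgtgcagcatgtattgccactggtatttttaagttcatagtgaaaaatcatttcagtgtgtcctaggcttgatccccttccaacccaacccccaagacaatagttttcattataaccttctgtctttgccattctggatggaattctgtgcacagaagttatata
Cnmd: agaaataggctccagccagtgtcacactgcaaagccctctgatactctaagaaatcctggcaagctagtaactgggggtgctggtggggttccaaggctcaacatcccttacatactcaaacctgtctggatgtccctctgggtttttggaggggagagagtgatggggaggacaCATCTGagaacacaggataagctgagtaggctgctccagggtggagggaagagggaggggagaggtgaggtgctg
Itm2b: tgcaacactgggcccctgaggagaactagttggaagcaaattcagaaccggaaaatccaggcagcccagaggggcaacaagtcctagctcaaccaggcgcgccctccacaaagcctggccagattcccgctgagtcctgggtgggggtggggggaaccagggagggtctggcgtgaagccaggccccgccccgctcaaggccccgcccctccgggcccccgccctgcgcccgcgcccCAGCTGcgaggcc
The Tnmd window holds no CANNTG, and the windows of Cnmd, Itm2a, Itm2b and Itm2c hold 1 each. Since CANNTG is its own reverse pattern, a match counts for both strands, and 66.2% of the 32851 promoter windows in the table hold at least 1. The windows also differ in CpG content. Tnmd has 2 CpG and 38.4% G and C, Cnmd has 0 CpG and 54.0%, Itm2a has 6 CpG and 62.8%, Itm2c has 12 CpG and 50.8%, and Itm2b has 14 CpG and 68.8%. The median window has 6 CpG and 52.4% G and C, and 7.87% of windows have no CpG, as Cnmd does. These matches are descriptions of letters. They show neither a bound site nor its lack.

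Tnmd, the gene targeted in the knockout, was read before its relatives. The Tnmd-/- cells held 1 count in cell 1, 2 in cell 9 and 5 in cell 20, and 0 in cells 3, 7 and 10. Among the WT cells, cell 14 held 10178 counts, cell 2 held 7, and cells 1, 4, 5 and 10 held 0. A single WT cell was thus far above all others, and the remaining 5 WT cells overlapped with the Tnmd-/- cells. In WT cell 14 Tnmd stood at 2254 CPM and 4347 TPM, the gene with rank 35 in that cell. At least 10 counts were found in 1 of 6 WT cells, a share of 16.7% (0.421 to 64.1%), and in 0 of 6 Tnmd-/- cells (up to 45.9%). A level of 10 counts was met in exactly 1 cell by 42% of the genes that met it at all, so the single-cell pattern of Tnmd is a common one here. The summed level was 0.228 CPM in the Tnmd-/- cells (8 counts, 3.45 to 15.8) and 191 CPM in the WT cells (10185 counts, 9988 to 10385).

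The few Tnmd counts outside WT cell 14 were set beside other genes with the same shape. There were 1021 genes, Tnmd included, with at least 1000 counts in a cell and fewer than 10 in each of the other 11. These genes had a median of 3 counts outside the top cell, in a median of 2 other cells, and in the highest decile 8 counts or more. Tnmd had 15 counts outside WT cell 14, in 4 other cells. Both numbers lay above the highest decile of these genes, 8 counts and 3 cells. As a percentage of its counts, however, this was 0.147%, the median of the 1021 genes, which were themselves taken for having under 10 counts in each other cell. Whether the low counts in the Tnmd-/- cells came from cells that transcribe the locus was not tested. The table gives no position within the gene, and the sources used here do not say which exons the allele lacks.

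Because Tnmd is X-linked and heterozygous females belong to the WT group by the study's definition, genes of the sex chromosomes were read in each cell. Xist, the RNA of the inactive X chromosome, had 0 counts in all 12 cells. At least 10 counts of the Y-linked genes Ddx3y, Uty, Kdm5d and Eif2s3y together were found in 9 of the 12 cells, 4 Tnmd-/- and 5 WT. Of the other 3, Tnmd-/- cell 9 had 0 such counts, Tnmd-/- cell 7 had 2 and WT cell 14 had 1. The 5 WT cells in which Tnmd had 7 counts or fewer held 433 to 1905 Y-linked counts each and none from Xist.

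Of the tendon genes set beside Tnmd, Scx and Mkx did not mark its cell, while Thbs4, Fmod and Comp were read there. Scx, which activates Tnmd in tendon, had 174 counts in WT cell 1, 1355 in WT cell 4 and 544 in WT cell 10, and 3 counts or fewer in every other cell. None of these 3 cells held a Tnmd count, and WT cell 14 held no Scx count. Mkx (Mohawk), a homeobox factor of tendon, had 1623 counts in WT cell 4, 321 in WT cell 10 and 1871 in Tnmd-/- cell 9, and 2 counts in WT cell 14. Thbs4, a thrombospondin of tendon matrix, was highest in WT cell 14 with 84743 counts (18765 CPM), and Tnmd-/- cell 20 followed with 69972 (10377 CPM). Fmod, or fibromodulin, had 5096 counts in WT cell 14 and 3038 to 15947 in WT cells 4, 5 and 10. It had 6645 counts in Tnmd-/- cell 20, more than in WT cell 14, and 58 or fewer in the other Tnmd-/- cells. At a minimum of 10 counts, Tnmd shared its cell with Thbs4, Fmod and Comp but not with Scx or Mkx. Thbs4 reached that minimum in 10 of the 12 cells and Fmod in 8, but Scx and Mkx in only 3 each. With Tnmd in 1 cell, this sharing shows no pattern of joint expression. Comp and Dcn reached that minimum in all 12 cells, and both had their highest CPM in WT cell 14 (20151 and 133605). WT cell 14 was also the cell with the fewest genes seen, 3505 against 3945 to 5636 in the other WT cells. Of the 12 tendon genes listed, all reached 10 counts in a cell, 1 was more than 2-fold higher and 4 were more than 2-fold lower in the Tnmd-/- sum, with a median log2 ratio of -0.42. Over all genes 35.5% were higher and 34.9% lower by that measure, and with any 1 cell left out the tendon genes gave 0 to 2 higher and 3 to 5 lower. Another 131 genes reached 10 counts in WT cell 14 and nowhere else.

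Cnmd had no count in any cell, so only its level in the libraries can be bounded. A floor of 3 counts corresponds to 0.0855 CPM in the Tnmd-/- sum, 0.0561 CPM in the WT sum and 0.0339 CPM over all cells. In single cells the floor lay between 0.220 CPM in WT cell 10 and 3.36 CPM in the shallow Tnmd-/- cell 7. Cells with Cnmd reads numbered 0 of 12, and the Clopper-Pearson interval of that share reaches up to 26.5%. In WT cell 14, Tnmd per exon kilobase was at least 4621-fold higher than Cnmd. In the 11 cells where Tnmd had 7 counts or fewer, 6 Tnmd-/- and 5 WT, Cnmd was not read either. No Cnmd was thus detected in the Tnmd-/- cells, nor in the WT cells with few or no Tnmd counts, at this depth and in this number of cells. Few or no Tnmd counts in a WT cell do not show that Tnmd was absent from it. No ratio of Cnmd between genotypes can be formed. As a background, 55.7% of the 21991 protein-coding genes of the table had 0 counts in all 12 cells.

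Cartilage genes other than Cnmd were read in some of the same cells. Sox9, the master factor of cartilage, had at least 10 counts in 7 cells, with 4980 in Tnmd-/- cell 9 and 1517 in WT cell 1 as the highest values. Acan, the core protein of aggrecan, had 8768 counts in Tnmd-/- cell 9 and 10741 in Tnmd-/- cell 10, and among the WT cells 1130 in cell 2, 354 in cell 10 and 20 in cell 4. Hapln1, which links aggrecan to hyaluronan, had 1930 counts in Tnmd-/- cell 10 and 1041 in WT cell 10. These were cells with 0 Cnmd counts. Of the 13 cartilage genes listed, 4 reached 10 counts in a cell (Sox9, Sox5, Acan and Hapln1), and 7 had 0 counts throughout, among them Col2a1, the collagen of cartilage. That share is near the 55.7% of all protein-coding genes with 0 counts in the 12 cells. The 4 with at least 20 counts were all more than 2-fold higher in the Tnmd-/- sum. Over all genes, 35.5% were more than 2-fold higher there. Most of these sums came from 1 cell: Tnmd-/- cell 9 held 91.3% of the Sox9 counts, Tnmd-/- cell 20 held 100% of the Sox5 counts, and Tnmd-/- cell 10 held 99.8% of the Hapln1 counts. With only the top Tnmd-/- cell left out, Sox9 lay below the full WT level, at 19.1 CPM against 36.9 CPM. So did Hapln1, at 0.161 against 19.5 CPM. The WT sums also came mostly from 1 cell. WT cell 1 held 77.0% of the WT Sox9 counts, and WT cell 10 held 99.9% of the WT Hapln1 counts. Outside the top cell of each genotype, Sox9 had 472 Tnmd-/- and 454 WT counts, and Hapln1 had 4 and 1. Acan, read in Tnmd-/- cells 9 and 10, stayed above the WT level without cell 10, at 354 against 28.3 CPM.

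**Figure D2:**
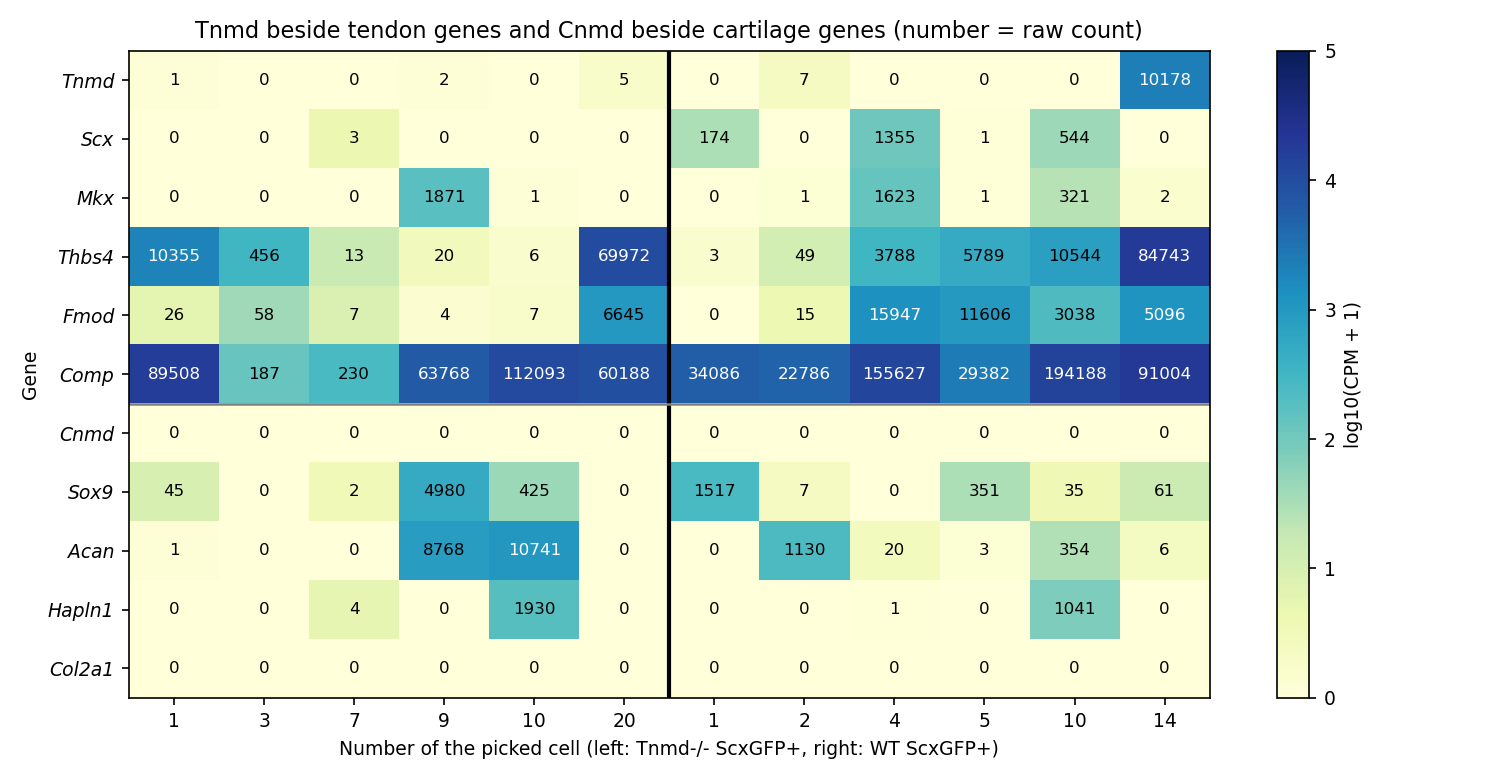
Raw counts of Tnmd with 5 tendon genes (above the grey line) and of Cnmd with 4 cartilage genes (below it) in the 6 Tnmd-/- and 6 WT cells, coloured by log10 of CPM plus 1. WT cell 14 holds 10178 Tnmd and 0 Scx counts, and Tnmd-/- cells 9 and 10 hold 8768 and 10741 Acan counts with 0 of Cnmd.

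Itm2a was at 0 in all 12 cells as well, with the same floors as Cnmd. Per exon kilobase, Tnmd in WT cell 14 was at least 4373-fold higher than Itm2a. The other BRICHOS domain genes of the mouse were also unread. Bricd5, the gastrokines Gkn1, Gkn2 and Gkn3 of stomach lining, and the lung surfactant protein gene Sftpc had 0 counts in every cell, 5 of 5 genes. Beside these and Itm2a, 55.7% of all protein-coding genes of the table had 0 counts in all 12 cells, so this is a common state.

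Itm2b was the most widely read member. Its counts in the Tnmd-/- cells were 807 in cell 1, 10 in cell 3, 15 in cell 7, 6059 in cell 9, 6353 in cell 10 and 5390 in cell 20. In the WT cells they were 106 in cell 1, 2 in cell 2, 12701 in cell 4, 7219 in cell 5, 20017 in cell 10 and 3 in cell 14. As levels, the Tnmd-/- cells ran from 6.65 to 799 CPM with a median of 369, and the WT cells from 0.414 to 1470 CPM with a median of 309. The genotypes overlapped over nearly the whole range, and each contained cells that were high and cells that were near 0. At least 10 counts were reached in 10 of 12 cells (83.3%, 51.6 to 97.9%), all 6 Tnmd-/- and 4 WT. Only 5.66% of the genes with at least 10 counts in a cell did so in at least 10 cells, so Itm2b was among the more regularly read genes. The summed levels were 531 CPM (523 to 539) in the Tnmd-/- and 749 CPM (742 to 757) in the WT cells. The log2 ratio of Tnmd-/- over WT was -0.50 (-0.52 to -0.47), at percentile 41.9 of the 9768 genes with at least 20 counts. WT cell 10 gave 20017 of the 40048 WT counts, and the ratio became 0.078 when it was left out.

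The cells with high Itm2b were the deeper ones, in equal numbers from each genotype. In 6 cells, 3 of each genotype, it lay between 586 and 1470 CPM (533 to 1325 TPM), where it took ranks 82 to 259 among the genes of the cell. In the other 6, again 3 of each genotype, it lay between 0.414 and 152 CPM, at ranks 911 to 2954. The first 6 cells had 6742665 to 13613080 total counts, and the other 6 had 892713 to 5991316, with no overlap. CPM is already divided by the total, and the part of depth in this split was not tested. With every cell thinned to 892713 counts, 457 to 1274 Itm2b counts were left in the first 6 cells and 0 to 129 in the others. Random thinning keeps CPM apart from sampling error, so this restates the split and is no test of depth. The most alike genes were Bzw1, a regulator of translation (Pearson's r 0.95, Spearman's rho 0.86), Ppib, a prolyl isomerase of the secretory pathway (0.94 and 0.74), and Pkm, pyruvate kinase (0.94 and 0.84). These describe log2(CPM + 1) over 12 cells among the 3191 genes that met 10 counts in 4 cells or more. The points share their depth: Itm2b against log10 of the total gave 0.67 and 0.86.

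**Figure D3:**
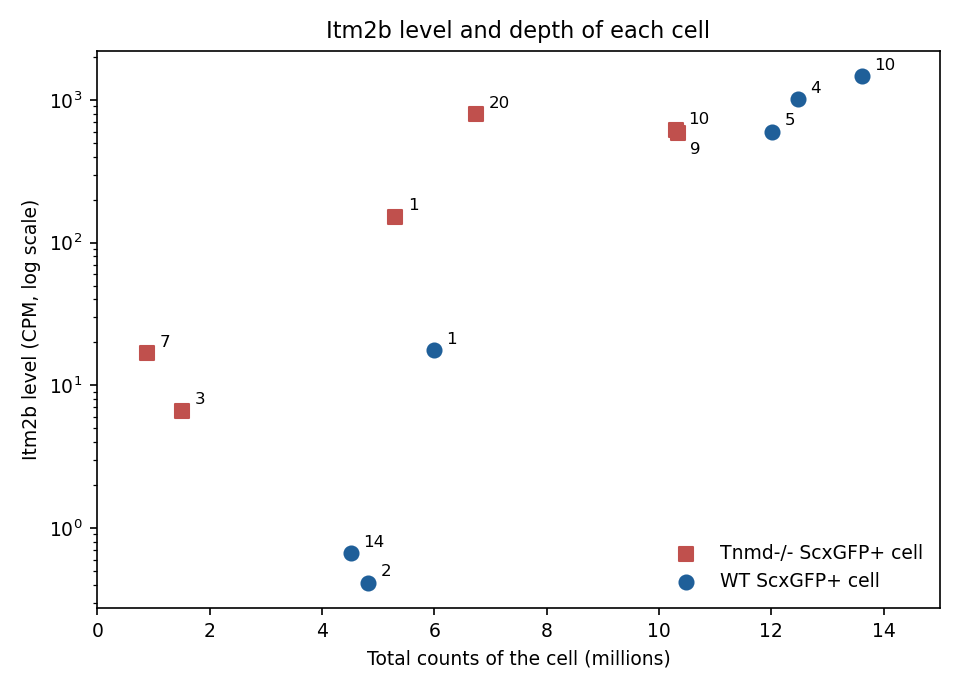
Level of Itm2b in CPM (vertical, log scale) against the total counts of each cell (horizontal), with squares for Tnmd-/- and circles for WT cells, numbered by the picked cell. The 6 cells with 6742665 counts or more all lie between 586 and 1470 CPM, and the 6 shallower cells lie at 152 CPM or below.

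Itm2c was read in WT cells alone at more than 7 counts. The WT cells held 732 counts in cell 1, 7 in cell 2, 1114 in cell 5 and 450 in cell 14, and 0 in cells 4 and 10. The Tnmd-/- cells held 2 in cell 1, 1 in cell 3, 4 in cell 10 and 2 in cell 20, and 0 in cells 7 and 9. Thus 3 WT cells lay well above every Tnmd-/- cell, at 122, 92.7 and 99.6 CPM, while the other 3 WT cells overlapped with the Tnmd-/- range of 0 to 0.665 CPM or lay just above it. At least 10 counts were found in 3 of 6 WT cells (50%, 11.8 to 88.2%) and in 0 of 6 Tnmd-/- cells. Of the 10123 genes with at least 10 counts in any cell, 1.83% were in 0 Tnmd-/- and at least 3 WT cells, and 0.929% showed the mirror image. The sums were 9 counts (0.256 CPM, 0.117 to 0.487) and 2303 counts (43.1 CPM, 41.4 to 44.9). The log2 ratio was -7.39 (-8.52 to -6.47), and it lay between -7.82 and -6.81 with any 1 cell left out. With 1 CPM added to both sums it was -5.13, at percentile 7.10 of all genes. These figures describe 6 cells against 6, and no label ties a cell to an animal, so a difference between genotypes cannot be told apart from one between animals or between cells.

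The 3 WT cells with Itm2c were not the cells with the most Itm2b. WT cells 4 and 10, the highest for Itm2b, had no Itm2c. Per exon kilobase, Itm2b was 0.132 times Itm2c in WT cell 1 and 0.00608 times in WT cell 14, but 5.91 times in WT cell 5. Summed over all 12 cells, Itm2b per exon kilobase was 23.1 times Itm2c and 2.85 times Tnmd. WT cell 14 was the only cell in which Tnmd and an ITM2 gene each reached 10 counts, with Tnmd 41.6 times Itm2c per exon kilobase. Besides Itm2c, 1 gene reached 10 counts in exactly the same 3 cells.

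Of the 3 members with enough counts, 2 were more than 2-fold lower in the Tnmd-/- sum (Tnmd and Itm2c) and 0 were more than 2-fold higher. Over all 9768 genes with at least 20 counts, 34.9% were more than 2-fold lower and 35.5% more than 2-fold higher, and the log2 ratio had its lowest decile at -4.69 and its highest at 4.40. With 1 CPM added, as for these deciles, the Tnmd log2 ratio was -7.29, at percentile 0.174 of these genes. With none added it was -9.71 (-10.92 to -8.73). It rested on 1 cell, since without WT cell 14 it was 0.67, from 8 Tnmd-/- and 7 WT counts.

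**Figure D4:**
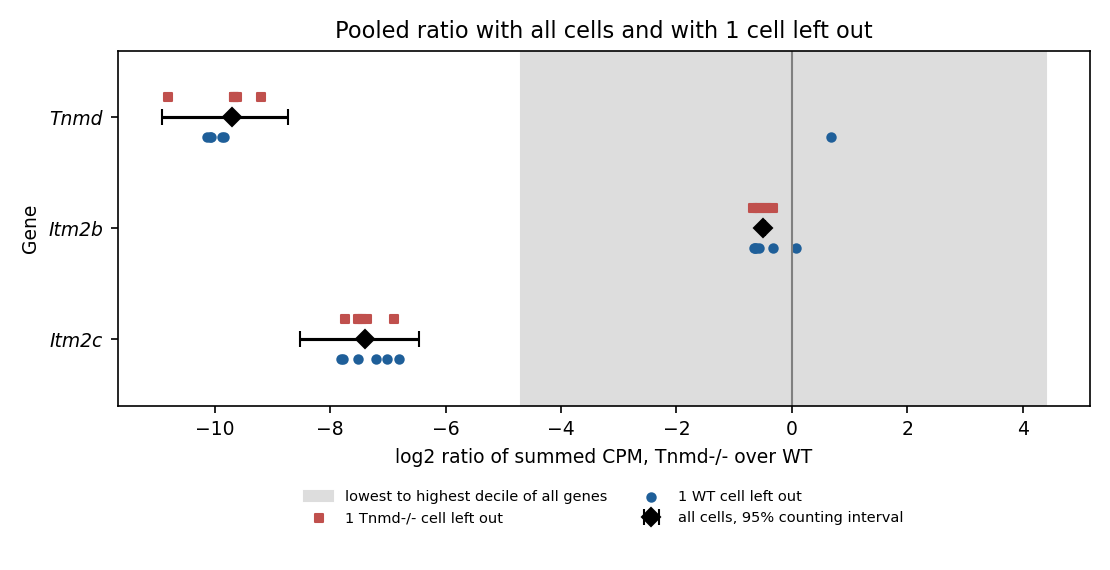
Log2 ratio of the summed CPM, Tnmd-/- over WT, for the 3 members with counts: diamonds with bars give all cells with the 95% counting interval, squares and circles give the ratio with 1 Tnmd-/- or 1 WT cell left out, and the grey band spans the lowest to highest decile of all genes (-4.69 to 4.40, with 1 CPM added). The ratios of the members have no CPM added. Tnmd moves from -9.71 to 0.67 when WT cell 14 is left out, Itm2b stays near 0, and Itm2c lies between -7.82 and -6.81.

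Proteases that cut ITM2 proteins were read in some cells and not in others. Furin, which releases the C-terminal peptide of Itm2b and Itm2c, summed to 9 counts over the Tnmd-/- and 80 over the WT cells, with at least 10 counts in WT cells 1, 2, 4 and 10 (11, 32, 12 and 24). Adam10, which sheds the BRICHOS domain of Itm2b, had 1429 counts in Tnmd-/- cell 1, 626 in WT cell 5 and 304 in WT cell 1, and 2 or fewer elsewhere. Sppl2a, an intramembrane protease for the remaining stub, had at least 10 counts in 4 Tnmd-/- and 5 WT cells, with sums of 457 and 9449. Its relative Sppl2b had 1207 counts in all, of which Tnmd-/- cell 20 held all but 2. Of the 7 proteases listed, with Pcsk5, Pcsk6 and Pcsk7, 3 were more than 2-fold higher and 2 more than 2-fold lower in the Tnmd-/- sum, beside 35.5% and 34.9% of all genes. The 3 higher ones, Pcsk5, Adam10 and Sppl2b, each had 99.9% of their Tnmd-/- counts in 1 cell, and without Tnmd-/- cell 1 the numbers were 1 higher and 5 lower, and without WT cell 2 the lower ones numbered 1. Their median log2 ratio with 1 CPM added was 0.83, beside 0.06 over all genes.

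App, the amyloid precursor protein to which Itm2b and Itm2c bind, was read in every cell. Its counts ran from 15 in cell 7 to 13796 in cell 9 among the Tnmd-/- cells and from 14 in cell 14 to 9562 in cell 10 among the WT cells. The genotypes overlapped. App reached 10 counts in all 12 cells, so its presence in the 10 cells with Itm2b and the 3 with Itm2c says nothing about these members. Aplp2, a close relative of App, reached 10 counts in 7 cells, 6 of them with Itm2b, which was itself read in 10 of the 12 cells. Bace1 and Bace2, the beta-secretases, had 0 counts throughout. Of the 10 genes listed around App, 6 reached 10 counts in a cell. The median log2 ratio of the 5 with at least 20 counts in all was 0.12.

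Markers of other cell types in which relatives of Tnmd are known were read in few cells, apart from the mural marker Cspg4. Immune and red blood cell markers reached 10 counts in no cell. Skeletal muscle markers did so in 2 Tnmd-/- cells, by Myh1 with 22 counts in cell 3 and Mylpf with 25 in cell 9. The summed adipocyte list was 0 to 922 CPM in the Tnmd-/- and 0 to 0.622 CPM in the WT cells, and 1387 counts of Fabp4 in Tnmd-/- cell 3 gave nearly all of it, while Adipoq, Lep, Cidec and Pparg were at 0 in all 12 cells. Endothelial markers reached 31.1 CPM in Tnmd-/- cell 1, from Pecam1 with 160 counts, and 0.220 CPM at most in the WT cells, with Cdh5, Tie1 and Emcn at 0. Among glial markers, S100b had 375 counts in Tnmd-/- cell 10 and 2352 in WT cell 10, and Mbp had 419 in Tnmd-/- cell 9, with Sox10 at 0. Of the mural markers, Cspg4 reached 10 counts in 4 Tnmd-/- and 2 WT cells and Pdgfrb in 1 of each, with Rgs5, Acta2 and Myh11 at 0. The highest Cspg4 levels were 118 CPM in Tnmd-/- cell 9 and 641 CPM in WT cell 5. The part of other cell types in the levels of the members was not tested. WT cell 14, the Tnmd cell, had 0 counts of the adipocyte, endothelial, immune, glial and skeletal muscle markers.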

How the data were processed

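Raw counts of 12 single cells, 6 Tnmd-/- ScxGFP+ and 6 WT ScxGFP+, were used as deposited. The authors trimmed the reads, kept those mapping to mouse alone, used STAR 2.5.1b for alignment to GRCm38 with Ensembl 96 genes and counted unique exonic reads with featureCounts (Subread 2.0.0), and the strand setting is not given in the sources used here. The deposited length column holds summed exon lengths. Groups came from the labels. The degradation level of the study was not used, since the labels do not give it. The study tested cells as replicates, which was not followed here. Counts were summed per genotype, divided by summed totals (CPM), and compared as log2 ratios, or against a floor of 3 counts where a sum was 0. Ratios over many genes had 1 CPM added. Exon positions and transcripts came from GENCODE M21 and promoters from RefSeq, where all 5 members matched. The members and lists, and the rule for named genes (members, up to 4 genes of a list, the 3 most correlated genes), were chosen with earlier results of these data known, and the comparison with genes held by a single cell, the 500 CPM division of Itm2b, more than 4 named genes of a list the removal of shallow cells and list counts with each cell left out were added after seeing the values. Alternatives were equal cell weights, TMM factors (edgeR 4.0.16), DESeq2 1.42.0 size factors, totals without the 37 mitochondrial genes, cells left out, a minimum of 1 in place of 10 counts, thinning, 100 or 1 in place of 20 counts over all cells, and 5 CPM added. Scripts used Python 3.11.15, pandas 2.3.3, scipy 1.17.1 and R 4.3.3, and the ratio was tested on simulated data. Results of some listed genes are not reported here.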

Additional observations from a re-analysis of the deposited data

Results flagged for a closer look

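In 6 sets of cells with counts, 3 members in each genotype, the most extreme cell was compared with its neighbour by Dixon's limit at 95%. That limit flags about 1 in 20 sets of normally distributed values. Levels with many cells at no count are not such values, so the rate of flags by chance is not known here. Of the genes with at least 10 counts in a cell, 42% had them in exactly 1 cell. WT cell 14 stood apart for Tnmd with 2254 CPM, and its gap to the next WT cell was 0.999 of the range. Tnmd-/- cell 20 stood apart for Tnmd with 0.742 CPM, which is 5 counts, and its gap was 0.739 of the range.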

How the results depend on the processing

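No paired analysis was possible because cell numbers only name picked cells and no result comes from a test. The ratio of Tnmd was -10.97 with cells weighted equally, -11.59 with TMM and -13.37 with DESeq2 size factors, and with 1 cell left out it ran from -10.81 to 0.67, the latter without WT cell 14. That of Itm2b was -0.94 with TMM factors, -0.34 with DESeq2 size factors, -0.46 with totals without mitochondrial genes and -0.40 without the cells under 2000000 counts, and from -0.68 to 0.078 with 1 cell left out, the latter without WT cell 10. That of Itm2c stayed within its counting interval under all 17 alternatives run. At a minimum of 1 count, Tnmd was read in 3 Tnmd-/- and 2 WT cells, in place of 0 and 1, and Itm2c in 4 Tnmd-/- cells in place of 0. Thinning to 892713 counts changed no number of cells but that of Itm2b in the Tnmd-/- cells, from 6 to 5. Cnmd and Itm2a stayed at 0 cells and gave no ratio to vary. The shares of genes past 2-fold lay between 25.7% and 39.2% under the other minimums and with 5 CPM added. Depth limits a statement of absence from the libraries to the floors given above, and 12 cells limit it to the shares given there. Transcripts of a cell that never entered its library were not measured. Scx reached 10 counts in only 3 of the 12 cells, although all were picked by its reporter.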
